A study of Mus musculus with 4 samples.

Results

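The genes described here are the 10 that write, copy and remove 5-methylcytosine in mouse DNA: the DNA methyltransferase genes Dnmt1, Dnmt3a, Dnmt3b and Dnmt3l, the UHRF genes Uhrf1 and Uhrf2, the TET genes Tet1, Tet2 and Tet3, and Tdg. They were taken by gene name from a table of 39179 Ensembl genes, in which all 10 were present by name, and all 10 had enough reads to be tested, among 15283 tested genes. The table comes from RNA sequencing of mouse embryonic fibroblasts (MEFs) of the BALB/c strain, in 4 libraries of 2 groups. GFP control cells (libraries I and II) carried a lentivirus for green fluorescent protein, and SON cells (libraries I and II) carried a lentivirus for 3 proteins of early embryos and germ cells, namely Stella (encoded by Dppa3), Oct4 (encoded by Pou5f1) and Nanos2. Both groups were infected at passage 2, put under puromycin at 2 µg/ml from 72 h later for 4 days, and then grown for 21 days in drug-free medium. The sources used here do not name the promoter of the lentivirus. The labels leave unsaid whether libraries I and II of a group were separate cultures, so each p-value reflects the spread among 4 libraries, which may be technical. The virus and the cultures that received it cannot be told apart.

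In mammals, methyl groups sit mainly on the cytosine of CG dinucleotides. DNMT3A and DNMT3B set them on unmethylated DNA, helped by DNMT3L, which has no catalytic activity. At each round of replication UHRF1 recognises the half-methylated CG and brings in DNMT1 to copy the mark. TET enzymes oxidise 5-methylcytosine, and the glycosylase TDG cuts out the last oxidised forms so that base excision repair can restore cytosine. Stella, a delivered protein, is known in mouse oocytes and zygotes to bind UHRF1 and to shield methylated DNA from TET3. Messenger RNA levels say nothing directly about methylation itself, which was not measured in these libraries.

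CG, the substrate of this pathway, is unevenly spread over the annotated starts of the genes themselves. Windows of 300 bases, from 250 bases before to 50 bases after an annotated start, were read from RefSeq (GRCm38.p6), which holds 17 such windows for the 10 genes, all 10 of them matched. Printed for each gene is the window with the most CG among those with no exon of the gene before the start, 5′ to 3′ on the gene's strand, with every CG in capitals. Dnmt1 (chr9:20952930-20953229, minus strand) and Uhrf1 (chr17:56304063-56304362, plus strand) are shown because they varied together among the libraries. Dnmt3l (chr10:78049592-78049891, plus strand) is shown because it had the lowest p of the 10, and Tet2 (chr3:133544341-133544640, minus strand) because it held the most CG.
Dnmt1: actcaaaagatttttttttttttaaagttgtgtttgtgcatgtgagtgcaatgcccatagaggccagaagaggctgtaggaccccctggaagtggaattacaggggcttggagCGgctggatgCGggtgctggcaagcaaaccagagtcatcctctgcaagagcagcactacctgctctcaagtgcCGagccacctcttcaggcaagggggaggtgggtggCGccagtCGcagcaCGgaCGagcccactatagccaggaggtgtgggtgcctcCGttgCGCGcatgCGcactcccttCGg
Uhrf1: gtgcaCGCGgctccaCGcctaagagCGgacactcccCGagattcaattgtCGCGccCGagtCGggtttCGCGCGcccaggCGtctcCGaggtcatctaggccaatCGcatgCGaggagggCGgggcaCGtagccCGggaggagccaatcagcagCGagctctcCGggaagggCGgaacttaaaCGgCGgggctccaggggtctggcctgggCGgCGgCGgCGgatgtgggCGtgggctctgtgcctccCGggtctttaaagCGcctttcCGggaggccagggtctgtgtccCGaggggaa
Dnmt3l: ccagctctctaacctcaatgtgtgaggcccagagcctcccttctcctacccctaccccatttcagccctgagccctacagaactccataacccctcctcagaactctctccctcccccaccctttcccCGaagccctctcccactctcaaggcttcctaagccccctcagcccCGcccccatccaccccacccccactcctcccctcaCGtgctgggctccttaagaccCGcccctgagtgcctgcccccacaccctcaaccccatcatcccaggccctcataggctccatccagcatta
Tet2: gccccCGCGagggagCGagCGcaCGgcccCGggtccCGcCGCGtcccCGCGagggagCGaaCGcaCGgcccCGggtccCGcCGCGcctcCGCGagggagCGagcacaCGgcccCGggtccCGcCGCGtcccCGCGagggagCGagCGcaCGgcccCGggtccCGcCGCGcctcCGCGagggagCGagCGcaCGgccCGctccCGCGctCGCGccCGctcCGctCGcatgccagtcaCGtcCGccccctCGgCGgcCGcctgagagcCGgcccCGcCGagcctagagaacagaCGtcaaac
The Tet2 window held 57 CG, a number reached by 0.152% of 32851 promoter windows of that length. The Uhrf1 window held 33 and the Dnmt1 window 12, against a median of 7 over all windows, and the Dnmt3l window held 4. The other Dnmt3l starts had 6 and 3. A second Dnmt1 window (chr9:20952574-20952873), in which 166 of the bases before the start lie in annotated Dnmt1 exons, held 33 CG. The motif TTTGGCGC, a binding sequence of the cell cycle factor E2F, was found there on the gene's strand, 33 bases after the start. TTTGGCGC occurred on either strand in 0.514% of all windows and the related TTTCCCGC in 1.07%. Either was found in 1.56% of windows, some of which held both, and in none of the other windows of the 10 genes. A match describes the letters alone. RefSeq's genome is not of the BALB/c strain, so the libraries' own sequence may differ.

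All values below are normalized counts, that is reads divided by 1 size factor per library as the authors deposited them, unless said otherwise, and sets of 4 values follow the order GFP control I, GFP control II, SON I and SON II. Reads in genes ranged from 14680865 (SON II) to 37097571 (GFP control II), so that a floor of 3 reads stood at 1.78 to 4.41 normalized counts. The delivered genes checked the labels: Dppa3 had 0, 0.594, 338 and 295, Pou5f1 had 0, 0, 449 and 426, and Nanos2 had 0, 0.594, 364 and 402. All 10 fibroblast markers passed the filter on low counts, with summed levels of 734207 and 440594 in GFP control libraries and 494648 and 414525 in SON libraries. Limma called 0 of the 10 (2 lower at an unadjusted p under 0.05), and the authors' deposited table calls 1, the collagen gene Col1a2, lower. Pluripotent and germ cell markers (12 genes apart from the delivered ones) summed to 76.8, 85.6, 57.3 and 73.4, and 2 of the 12 could be tested, with 0 called by limma (1 lower at an unadjusted p) or in the authors' deposited table. Markers of macrophages, endothelium and epithelium were also read, with summed levels of 333 to 1269, 160.4 to 300 and 186 to 984. Limma called 0 of the 8, 6 and 3 of these that were tested (0, 2 and 2 higher at an unadjusted p), and the authors' deposited table calls 2 epithelial genes, Krt19 and Dsp, higher. Over all 15283 tested genes, 916 were higher and 1004 lower at an unadjusted limma p under 0.05. The authors' table calls 217 genes higher and 379 lower. Krt19, a keratin, measured 90.2, 120.1, 295 and 197, and Dsp, a desmosome protein, 18.4, 89.8, 224 and 695. Of the 3 tested epithelial markers 2 had positive differences and 1 a negative one, and 6 of the 9 listed were not tested. The negative one, the keratin Krt18, measured 59.3, 146, 132 and 52.9 (log2 -0.15). Of the 6 tested endothelial markers 3 had positive and 3 negative differences. Kdr, an endothelial growth factor receptor, measured 37.6, 77.3, 139 and 138, and Vwf, the endothelial clotting protein, 32.6, 38.0, 16.4 and 27.9. Their part in the levels of the 10 genes was not tested. In bulk RNA, fewer cells of a type and less RNA per cell cannot be told apart.

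No gene of the 10 was called between SON and GFP control. A call here means an adjusted p under 0.05 (Benjamini-Hochberg, over all 15283 tested genes) in limma, fitted to log2 of the normalized count plus 1. Over all genes limma called 8, or 0.0523%, and 0 of 10 is near that background. The authors' deposited table, made with DESeq2, calls 596 of 14637 genes, or 4.07%, and 0 of these 10. Without adjustment, 1 of the 10 (Dnmt3l) had a limma p under 0.05, against 12.6% of all tested genes. The log2 difference of SON minus GFP control was positive for 5 members and negative for 5, with a median of -0.08 against -0.01 over all tested genes. The members' median was 0.053 without GFP control I and 0.057 without SON II, and -0.25 without either of the others. The median absolute difference was 0.26 for the members and 0.24 for all tested genes. Groups did not overlap for 3 of the 10 (Dnmt3l and Uhrf2 lower, Tet3 higher in SON), against 45.9% of all tested genes.

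**Figure D1:**
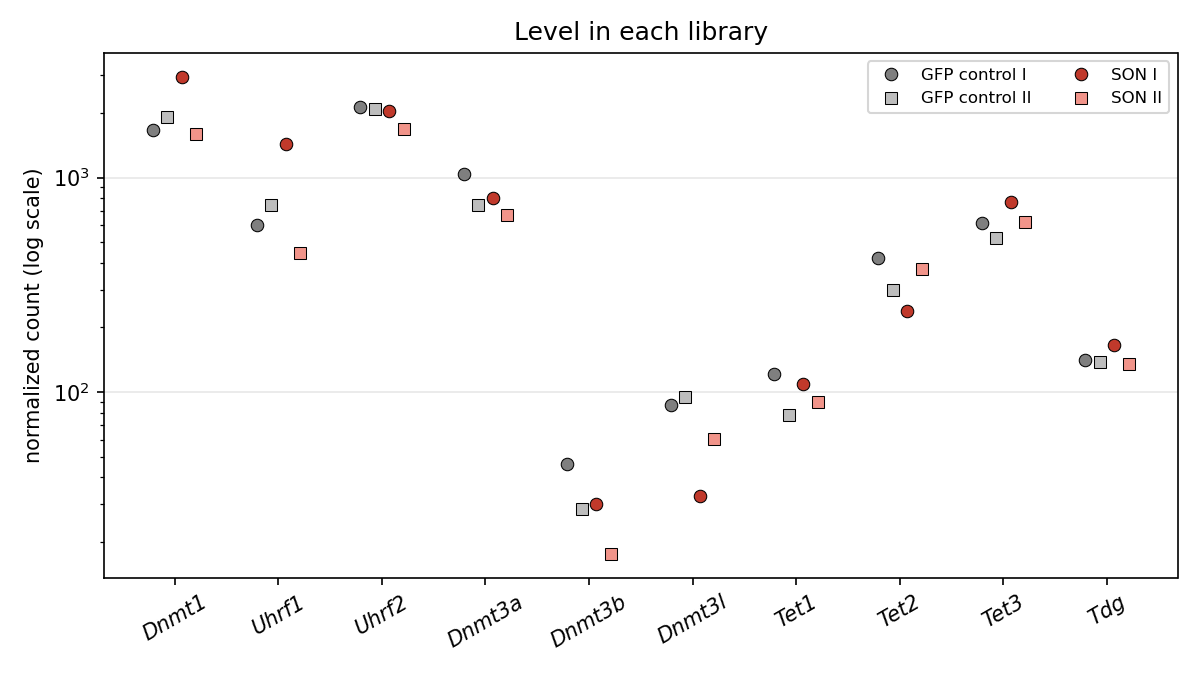
Normalized count (log scale) of each of the 10 genes in the 4 libraries, grey for GFP control and red for SON, circles for library I and squares for library II. SON I stands highest for Dnmt1 (2949) and Uhrf1 (1439), and both SON libraries lie under both GFP control libraries for Dnmt3l.

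For Dnmt1, Uhrf1 and, less widely, Tdg the SON libraries lay on either side of both controls. Dnmt1, which copies the methyl mark after replication (ENSMUSG00000004099, chromosome 9, 20907209 to 20959888), measured 1670.4, 1923, 2949 and 1604. SON I was the highest and SON II the lowest of the 4, so the groups overlapped. The means were 1797 ± 179 for GFP control and 2277 ± 951 for SON cells (SD, n = 2 each), a log2 difference of 0.28 ± 0.31 (SE) with a 95% interval from -0.51 to 1.07 (limma adjusted p = 0.760).

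Uhrf1, which encodes the reader of half-methylated CG (ENSMUSG00000001228, chromosome 17, 56303321 to 56323486), measured 602, 745, 1439 and 444. SON I was again the highest and SON II the lowest. The means were 674 ± 101 and 941 ± 704 (SD, n = 2 each), and the log2 difference was 0.25 ± 0.56 (SE), with an interval from -1.16 to 1.67 (limma adjusted p = 0.891). Without SON I the log2 difference was -0.16 for Dnmt1 and -0.59 for Uhrf1, and without SON II it was 0.72 and 1.10, with no call in either case. The sign of both differences thus depended on which SON library was kept.

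Uhrf2, the paralog of Uhrf1 whose part in maintenance is less clear (ENSMUSG00000024817, chromosome 19, 30030513 to 30093722), had SON libraries closer together. It measured 2132, 2092, 2045 and 1676. Both SON values were under both control values, SON I by a narrow margin. The means were 2112 ± 28.2 and 1861 ± 261, and the log2 difference was -0.19 ± 0.16 (SE), with an interval from -0.59 to 0.21 (limma adjusted p = 0.677). Without SON II it was -0.046, and without SON I -0.33.

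The gap between the SON libraries was 3.24-fold for Uhrf1 (exact 95% interval 2.85 to 3.70, counting error only) and 1.84-fold for Dnmt1 (1.71 to 1.98). On the log2 scale SON I stood 1.69 above SON II for Uhrf1 and 0.88 for Dnmt1. A wider gap between the SON libraries, in either direction, was found for 3.57% of tested genes in the case of Uhrf1 and 15.2% in the case of Dnmt1. Between the GFP control libraries the same genes differed less and the other way, with I minus II at -0.31 for Uhrf1 and -0.20 for Dnmt1. A wider gap between the GFP control libraries was found for 34.7% of tested genes in the case of Uhrf1 and 50.4% for Dnmt1. The other 8 members had SON gaps between -0.86 (Dnmt3l) and 0.73 (Dnmt3b).

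Partners of maintenance at the replication fork differed between the SON libraries in the same direction as Uhrf1 and Dnmt1. All 6 listed partners were higher in SON I than in SON II, 1 of them only slightly. The median log2 difference was 1.36 (range 0.08 to 1.46), against 0.03 over all tested genes. Pcna, the sliding clamp that holds DNMT1 at the fork, measured 867, 889.9, 1591 and 636. Lig1, the ligase of the lagging strand, measured 549, 594, 1036 and 395. Cdca7, which with Hells opens chromatin for methylation, measured 190.4, 243, 434 and 157, and Cdca7l, its paralog, 70.2, 117, 215 and 79.3. For these 4 genes SON I was the highest of the 4 libraries. Between the groups 0 of the 6 were called by limma (also 0 at an unadjusted p under 0.05) or in the authors' deposited table, and their median log2 difference was 0.18, which was -0.46 without SON I and 0.86 without SON II.

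Genes of DNA replication and mitosis differed between the SON libraries in the same direction. Of 21 such genes, 20 were higher in SON I than in SON II, and the median log2 difference over the 21 was 1.503 (range -0.17 to 2.57). The exception was E2f1, which encodes an E2F factor and measured 991, 1108, 1160 and 1304. In the GFP control pair, library I was higher for 0 of 21 (median -0.38). Their summed level was 16421, 21675, 35190.5 and 13986. Between the groups 0 of 21 were called by limma (also 0 at an unadjusted p) or in the authors' deposited table, with a median of 0.16, which was 0.95 without SON II, 0.35 without GFP control II, -0.048 without GFP control I and -0.60 without SON I. Rrm2, a subunit of the enzyme that makes deoxynucleotides, measured 1503, 2683, 4430.2 and 2663. Mcm5, part of the replicative helicase, measured 563, 799, 1522 and 536, and Mcm2, of the same complex, 692, 902, 1460.4 and 781. Cdt1, which loads that helicase, measured 171, 208, 275 and 261, with SON I and SON II close together. Macrophage markers went the opposite way between the SON libraries only. Of 8 tested, 0 were higher in SON I than in SON II. Between the GFP control libraries, I was likewise higher for 0 of 8 (median -0.45), so both lists shifted the same way there. The 11 macrophage markers in the table summed to 1004, 1269, 333 and 1105, with none at 0 in all libraries. Lyz2, the lysozyme gene of macrophages, measured 352, 377, 43.6 and 306, and Csf1r, their growth factor receptor, 94.4, 161, 73.6 and 98.4. The leukocyte and lysosome membrane genes Cd53 and Cd68 measured 427, 537, 164 and 413, and 79.3, 109.97, 39.5 and 198. The part of dividing cells or of other cell types in the levels of Dnmt1 and Uhrf1 was not tested.

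**Figure D2:**
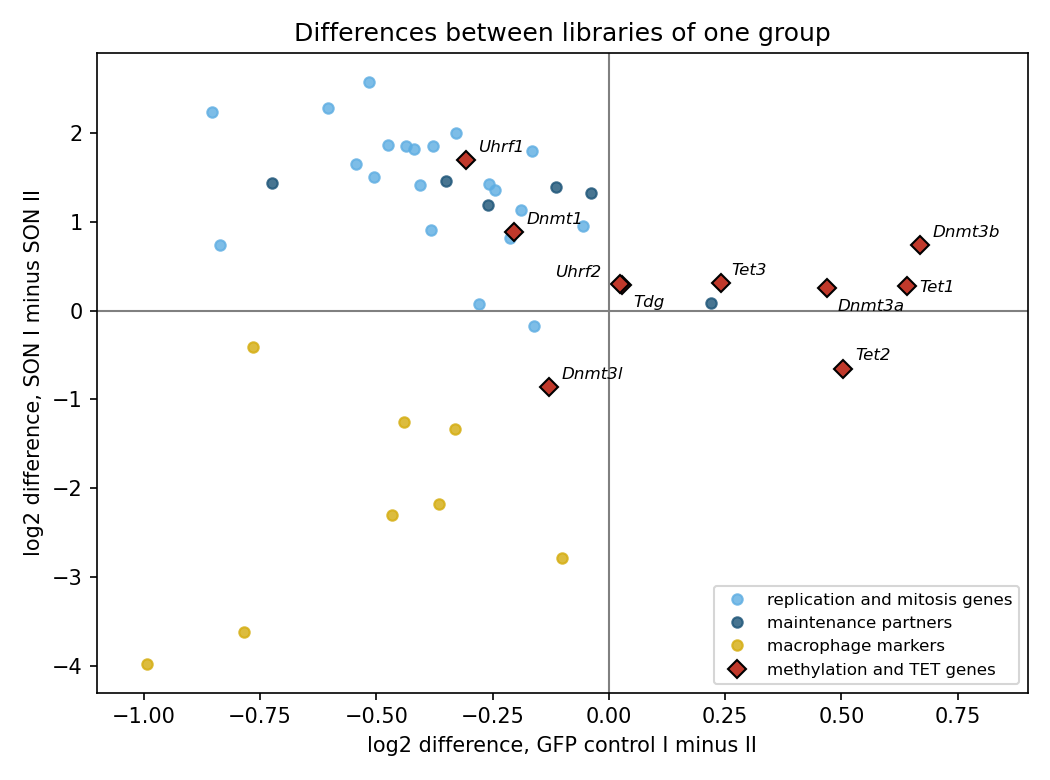
Each point is a tested gene, placed by its log2 difference between the GFP control libraries (x axis, I minus II) and between the SON libraries (y axis, I minus II); red diamonds are the 10 genes, pale blue points 21 replication and mitosis genes, dark blue points 6 maintenance partners and yellow points 8 macrophage markers. Uhrf1 (1.69) and Dnmt1 (0.88) lie among the blue points, while Dnmt3l (-0.86) and Tet2 (-0.65) lie below 0.

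The genes whose pattern over the 4 libraries was closest to that of Uhrf1, by Euclidean distance of log2 levels centred on each gene's mean, were Mad2l1 (distance 0.05), Nsl1 (0.09) and Ncapd2 (0.10). Mad2l1, which encodes a spindle checkpoint protein, measured 471, 602, 1104 and 347. For Dnmt1 the nearest were Rtel1 (0.04), a helicase of telomeres, Rpa2 (0.04), a subunit of the single-strand DNA binding complex, and Ly75 (0.06), an endocytic receptor. Rpa2 measured 377, 446, 674 and 376. With 4 libraries and 15283 genes to choose from, these names are a description.

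The 3 de novo genes had negative differences, and none was called. Dnmt3a, the main de novo enzyme gene of these cells by level (ENSMUSG00000020661, chromosome 12, 3806007 to 3914443), measured 1034, 747, 799 and 671. The groups overlapped, with GFP control II under SON I. The means were 890.3 ± 203 and 735 ± 90.3, and the log2 difference was -0.26 ± 0.22 (SE), with an interval from -0.82 to 0.29 (limma adjusted p = 0.680). It was -0.028 without GFP control I, -0.14 without SON II and -0.50 without GFP control II.

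Dnmt3b, the second de novo enzyme gene and one that is abundant in early embryos (ENSMUSG00000027478, chromosome 2, 153649450 to 153687730), had few reads: 55, 48, 22 and 12, or 45.9, 28.5, 29.998 and 17.6 normalized counts. GFP control II lay under SON I, so the groups overlapped. The log2 difference was -0.63 ± 0.46 (SE), with an interval from -1.81 to 0.55 (limma adjusted p = 0.631). With single libraries left out it ranged from -0.999 (SON I left out) to -0.26 (SON II left out). The closely related Dnmt3c, which shares 9.81% of the 50-base windows of the Dnmt3b transcripts, had 0, 1, 0 and 0 reads.

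Dnmt3l, the cofactor known from germ cells and early embryos (ENSMUSG00000000730, chromosome 10, 78041947 to 78063622), had the largest difference of the 10. It had 104, 160, 24 and 41 reads, or 86.9, 95.1, 32.7 and 60.2 normalized counts. Both SON values lay under both control values. The means were 91.0 ± 5.83 and 46.5 ± 19.4, and the log2 difference was -1.02 ± 0.39 (SE), or 0.494 of the control level, with an interval from -2.01 to -0.02 on the log2 scale. The limma p was 0.0470 before adjustment and the adjusted p was 0.393. The authors' deposited table gives a log2 fold change of -0.85 and an adjusted p of 0.411. The difference was -0.59 without SON I and -1.45 without SON II. Of all tested genes, 8.81% had a larger absolute log2 difference. Its exons overlap those of the antisense gene Aire by 67 bases, and Aire had 5, 5, 0 and 2 reads.

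**Figure D3:**
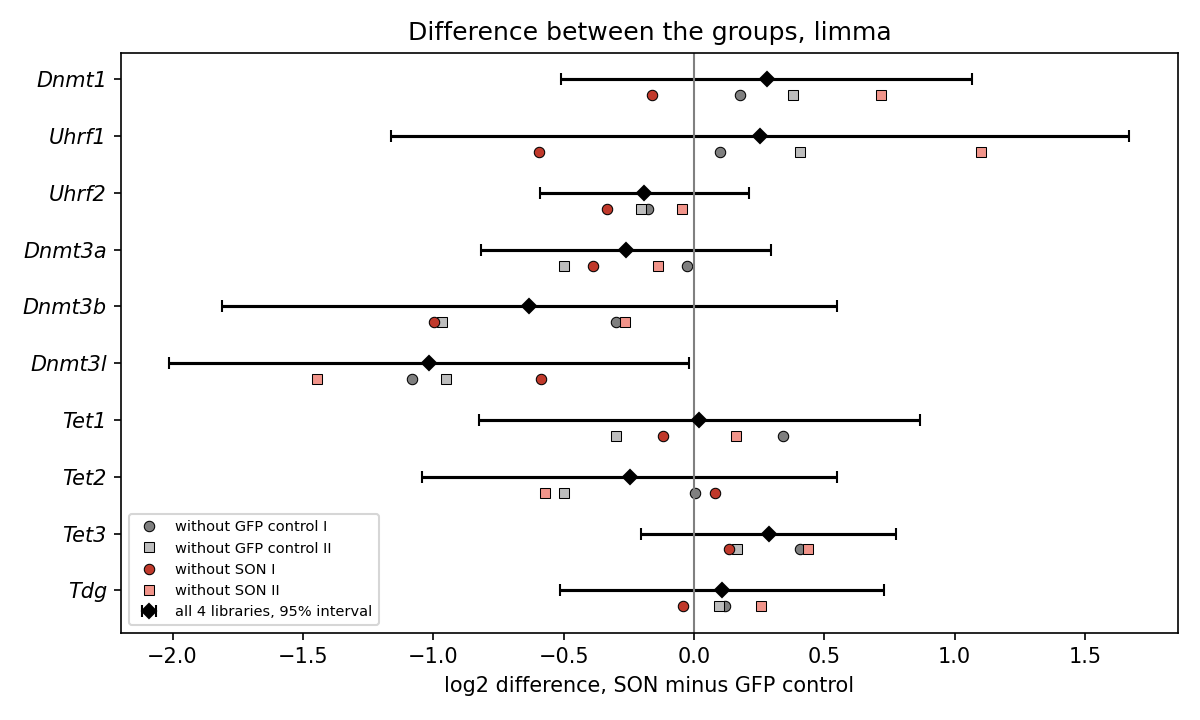
Log2 difference of SON minus GFP control for the 10 genes: black diamonds with bars are the limma estimate from all 4 libraries with its 95% interval, and the smaller symbols below each are the estimates with 1 library left out. The intervals of 9 genes span 0 and that of Dnmt3l ends at -0.02; leaving out SON I or SON II moves Uhrf1 to -0.59 or 1.10.

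None of the 3 TET genes was called, and their differences had both signs. Tet3, the TET gene with the highest level here and the enzyme that oxidises the paternal genome in the mouse zygote (ENSMUSG00000034832, chromosome 6, 83362373 to 83459084), measured 616, 521, 768 and 621. Both SON values were above both control values, SON II narrowly. The means were 568 ± 67.1 and 695 ± 103, and the log2 difference was 0.29 ± 0.19 (SE), with an interval from -0.20 to 0.78 (limma adjusted p = 0.5995). It lay between 0.13 and 0.44 when single libraries were left out.

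Tet2, a TET gene often mutated in blood cancers of humans (ENSMUSG00000040943, chromosome 3, 133463679 to 133545139), measured 423, 298, 239 and 376. Its SON libraries stood on the reverse side from Uhrf1, with SON I at 0.635 of SON II (exact 95% interval 0.521 to 0.772, counting error only). The log2 difference was -0.25 ± 0.31 (SE), with an interval from -1.04 to 0.55 (limma adjusted p = 0.795), and it was 0.081 without SON I. Tet1, the TET gene best known from embryonic stem cells (ENSMUSG00000047146, chromosome 10, 62804570 to 62908996), measured 122, 77.9, 109 and 89.6. The SON values lay between the control values. Its log2 difference was 0.02 ± 0.33 (SE), with an interval from -0.83 to 0.87 (limma adjusted p = 0.990), so that a change of up to 1.82-fold upward or to 0.564 of the control level stays inside the interval.

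Tdg, whose product removes oxidised methylcytosine and thymine mispaired with guanine (ENSMUSG00000034674, chromosome 10, 82629828 to 82650799), measured 140.3, 138, 166 and 135. SON I was the highest library and SON II, narrowly, the lowest, so the groups overlapped. The log2 difference was 0.11 ± 0.24 (SE), with an interval from -0.51 to 0.73 (limma adjusted p = 0.895). The counts of Tdg are uncertain: 41.2% of the 50-base windows of its transcripts occur in other genes, 29.4% in the pseudogene Tdg-ps, which had 0, 1, 0 and 0 reads, and 367 of its exon bases overlap Glt8d2 on the opposite strand, which had 141, 144, 65 and 78 reads. For Uhrf1 the share was 15.4%, nearly all with Gm5648, which had 20, 30, 20 and 9 reads. The other 7 genes apart from Dnmt3b shared under 1% of their windows.

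To set the genes against each other, normalized counts were divided by the length of all annotated exons in kilobases, a length that includes rare exons and so lowers genes with many isoforms. Dnmt1 stood highest, at a mean of 276 per kilobase over the 4 libraries, before Uhrf2 at 231 and Uhrf1 at 189.6. These 3 overlapped in their ranges, and all lay above Dnmt3a at 48.8. Dnmt3a overlapped with Tet3 (37.8), and Tet3 lay just above Tdg (26.97), with its lowest library at 31.2 and the highest of Tdg at 31.0. Tdg, Dnmt3l (23.0) and Tet2 (19.8) overlapped in turn. Tet1 (6.45) and Dnmt3b (5.98) were lowest, overlapped each other and were below Tet2 in every library.

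Within the DNMT and TET families the order of the genes per kilobase was the same in all 4 libraries, and in the UHRF family it differed in SON I. Tet3 held 53.0% of the TET reads in GFP control I (Wilson 95% interval 50.4 to 55.6), 58.1% in GFP control II (55.5 to 60.5), 68.8% in SON I (65.6 to 71.9) and 57.2% in SON II (53.6 to 60.7). SON II lay within the range of the controls, and SON I above it. Tet1 held between 8.24% and 10.5% of TET reads in the 4 libraries. Per kilobase, Uhrf1 made up 36.3%, 41.8% and 34.8% of the UHRF level in GFP control I, GFP control II and SON II, and 58.7% in SON I, where it passed Uhrf2. Dnmt1 made up 69.3%, 76.0%, 86.0% and 77.3% of the DNMT level.

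**Figure D4:**
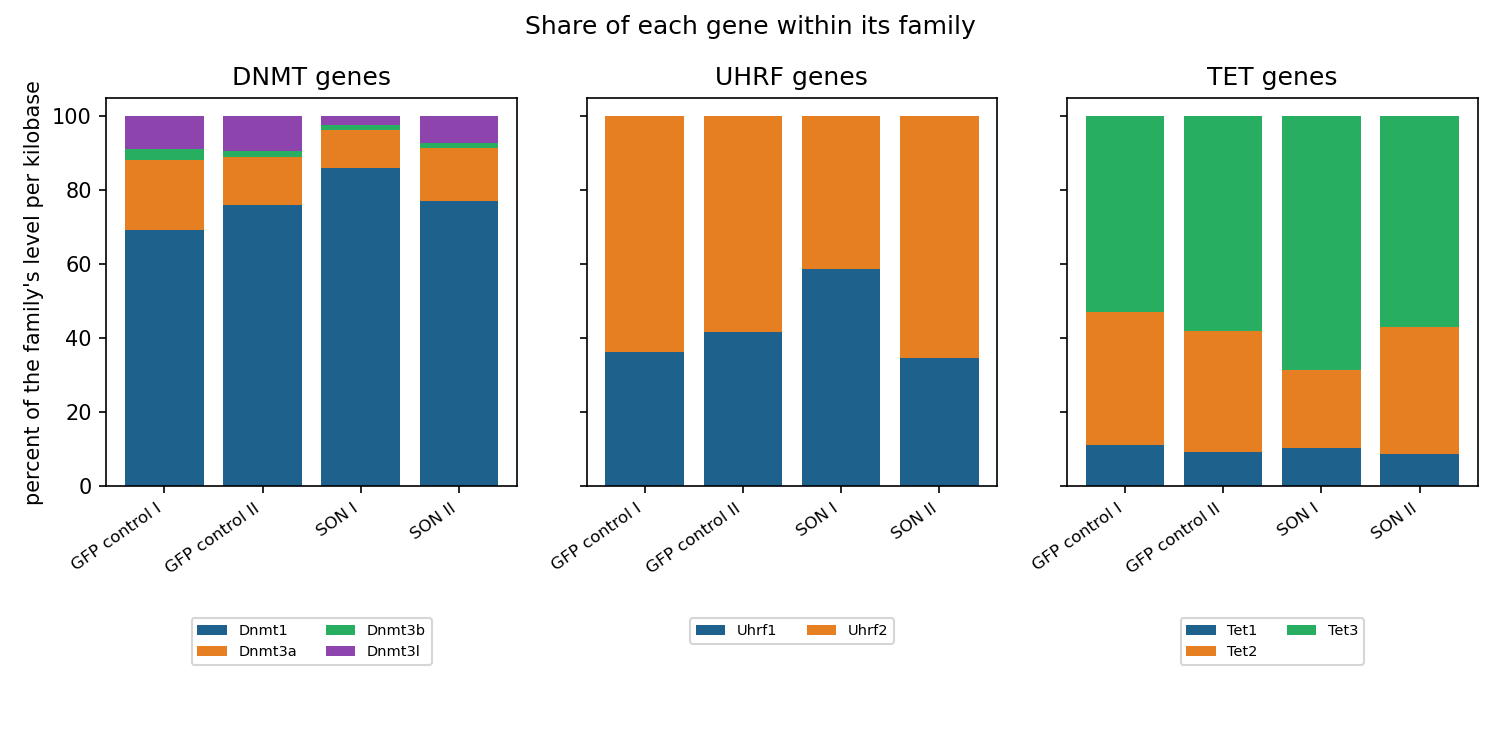
Stacked bars give each gene's percent of the summed level per kilobase of its family (DNMT, UHRF and TET genes) in the 4 libraries, without error bars since each bar is 1 library. SON I differs from the other 3 libraries by a larger part of Dnmt1 (86.0%), Uhrf1 (58.7%) and Tet3 (68.4%).

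The rest of the pathway was described from lists. As background for each list, limma called 0.0523% of all tested genes, and 12.6% had an unadjusted limma p under 0.05. The authors' deposited table calls 4.07% of its 14637 genes. Of 18 tested genes for base excision repair and TET partners, 0 were called by limma (1 higher and 1 lower at an unadjusted p) or in the authors' deposited table, with 6 positive and 12 negative differences and a median of -0.11, which was -0.030 without SON I and 0.16 without SON II. Cxxc5, a CXXC-domain protein that binds unmethylated CG, measured 458, 577, 871 and 740.3, a log2 difference of 0.64 ± 0.20 (SE, limma adjusted p = 0.324). Gadd45g, a stress gene linked to demethylation, measured 539.6, 471, 1122 and 604 (log2 0.71, limma adjusted p = 0.452). Idh2, which makes the 2-oxoglutarate that TET enzymes use, measured 1319, 1084, 1265 and 426. Neil2, a glycosylase of oxidised bases, measured 67.7, 90.9, 25.9 and 85.2. For Idh2 and Neil2 the SON libraries lay far apart, in opposite directions.

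Genes of the methyl-CG-binding domain family and zinc finger proteins that bind methylated DNA were listed together. Not every member of that family binds methylated CG. All were tested, and 0 of 10 were called by limma (0 at an unadjusted p) or in the authors' deposited table (7 positive, 3 negative, median 0.07). The median was -0.016 without GFP control II and -0.0053 without SON I. Mbd2 had the largest difference among them, with 1694, 1625, 1458 and 1225 (log2 -0.31, limma adjusted p = 0.483). Mbd3, a subunit of the NuRD complex that in mammals does not select methylated CG, measured 1640.4, 1611, 1899 and 1879, and Zfp57, which protects imprinted regions, 671, 656, 945 and 618.4. Of 9 histone modifiers that guide DNA methylation, 0 were called by limma (0 at an unadjusted p) or in the authors' deposited table (median 0.02, and -0.045 without SON I). Whsc1, a methyltransferase of histone H3, measured 1023, 1096, 1844 and 1069, and its relatives Nsd1 and Whsc1l1 measured 3083, 2761, 2505 and 2756, and 2655, 2156, 1969 and 2043. Kdm1b, a demethylase of histone H3, measured 346, 374, 378 and 426.

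Of 15 genes of the methionine and folate cycles, which supply the methyl donor S-adenosylmethionine, 12 were tested, with 9 positive and 3 negative differences and a median of 0.33, which was 0.20 without SON I. Limma called 0 of them, with 3 higher at an unadjusted p, and the authors' deposited table calls 1, Mthfd1, higher. Over all 15283 tested genes, 916 were higher at an unadjusted limma p, and the authors' table calls 217 genes higher. Mthfd1, which interconverts one-carbon folates, measured 743, 969, 1681 and 1484. Both SON values were above both control values, and the log2 difference was 0.90 ± 0.19 (SE, limma adjusted p = 0.251). The authors' deposited table gives Mthfd1 an adjusted p of 0.0282.

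Of 18 germ line genes known as targets of silencing by promoter methylation in somatic cells, 6 could be tested and 0 were called by limma or in the authors' deposited table, with 2 (Brdt and Ddx4) lower in SON at an unadjusted limma p and a median of -0.56. That median was -0.016 with SON I left out, -0.26 with GFP control II left out and -0.91 with SON II left out. Over all 15283 tested genes, 1004 were lower at an unadjusted limma p. The 18 germ line genes summed to 265, 218, 132 and 176 normalized counts. Brdt, a bromodomain protein of the testis, measured 145, 85.6, 50.5 and 57.3, a log2 difference of -1.04 ± 0.36 (SE, limma adjusted p = 0.361). Ddx4, an RNA helicase of germ cells, had few reads: 54, 74, 10 and 8, or 45.1, 44.0, 13.6 and 11.8 normalized counts. Its log2 difference was -1.74 ± 0.37 (SE, limma adjusted p = 0.251).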

How the data were processed

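Messenger RNA of 4 libraries was prepared with the TruSeq mRNA kit v2, per the labels' protocols, a kit that does not mark strand, so reads of overlapping antisense genes cannot be told apart. The submitters' processing notes list, without roles, the aligners STAR 2.4.0j and TopHat2 2.0.11, the counters HTSeq 0.5.3p3 and featureCounts (Subread), CASAVA 1.8.1 and DESeq2, and the build GRCm38 (mm10). Values deposited per gene are a signal (normalized count), reads divided by the authors by 1 size factor (1.20, 1.68, 0.733 and 0.681 in GFP control I, GFP control II, SON I and SON II): 100% of values were whole multiples of 1 step within 0.01 reads. Per the file headers the table also holds the authors' DESeq2 mean signal, log2 fold change, Wald score and p-value with its adjusted form. Total reads were 28924700, 37097571, 17365551 and 14680865. The deposited table of repeat copies was not used here.

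Tests used limma 3.58.1 in R 4.3.3 (trend, two-sided) on log2(normalized count + 1) across all 15283 genes kept by filterByExpr of edgeR 4.0.16. The limma fit alone was run on simulated counts, as a check of the code. The spread between simulated libraries was set in advance and not taken from these data. Alternatives were other pseudocounts, filters and TMM scaling, edgeR and DESeq2 1.42.0 on recovered reads, a replicate block and each library left out. Exon lengths, positions and overlaps came from GENCODE M21 (GRCm38), and 37607 identifiers matched it. Intervals of ratios and shares (exact or Wilson, 95%) cover counting error only, and isoforms were not resolved.

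The genes and lists were chosen with earlier results of these data known. Named are all 10 genes and, per list, members called by limma or the authors, or else up to 4 tested members with a mean of at least 50 and the largest differences, and the 3 tested genes nearest in pattern to the 2 members of widest range with a mean of at least 100. Ddx4, Vwf, Krt18 and E2f1 were named outside this rule, after their values were seen, as were Dnmt3c and the overlapping genes. The values of 1 gene that the rule names are not reported here.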

Additional observations from a re-analysis of the deposited data

How the results depend on the processing

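None of the 10 genes was called under any of the 12 alternatives, with limma, edgeR or DESeq2. Over all genes limma called 5 higher and 3 lower in SON. With a pseudocount of 0.1 it called 3 higher. DESeq2 on the recovered reads called 218 higher and 381 lower. With 1 library left out the counts ranged from 0 to 9 higher and from 0 to 28 lower: 9 and 28 without GFP control II and 0 and 0 without each of the others. Numerals I and II share a number and no stated origin: the deviations of GFP control I and SON I from their group means correlated at 0.22 across genes, and with the replicate block limma called 4 higher and 7 lower. The cause of these shifts was not tested.

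Of the log2 differences recomputed for the 10 genes under 12 alternatives, 111 kept their sign and 9 reversed. The other filters and the replicate block leave the estimate itself unchanged (0.28 for Dnmt1 in each), so they could not reverse a sign. This tally is therefore no measure of stability. Leaving out 1 library gave -0.16 to 0.72 for Dnmt1, -0.59 to 1.10 for Uhrf1, -0.30 to 0.34 for Tet1, -0.57 to 0.081 for Tet2 and -0.041 to 0.26 for Tdg. Tet1, at 0.02, was also -0.00012 with edgeR and -0.0030 with DESeq2. Differences of Dnmt3a, Dnmt3b, Dnmt3l, Uhrf2 and Tet3 kept their sign under all 12 alternatives. For Dnmt3l, Uhrf2 and Tet3 the groups did not overlap, so leaving out 1 library could not reverse the sign. Depth limits Dnmt3b most, with 12 reads in SON II.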
